A study of Mus musculus with 4 samples.

Results

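Strong Isl1 regions at gene ends are stretches of chromatin that an antibody against ISL1 enriched in both replicates, with a high peak score, beside a protein-coding gene. They were 319 of 6834 shared regions. A shared region joined peaks of both replicate lists that overlapped by at least 1 bp, and its centre was the midpoint of the longest overlap. The 319 regions were selected on measured values: the lower of their replicate scores reached a fixed limit, stated with the processing, and their centre lay within 1 kb of either end of a RefSeq protein-coding gene. Score and closeness to a gene end are therefore descriptions of how the regions were chosen, and neither was tested. The regions most like them were 613 weaker regions at gene ends, which met the distance limit but not the score limit, and 373 strong regions away from gene ends, which met the score limit but not the distance limit.

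The tissue was the genital tubercle, from which the penis or clitoris grows, of wildtype CD1 mouse embryos at E14.5 (embryonic day). The series held 2 Isl1 ChIP samples, made with a rabbit monoclonal antibody, and 2 input DNA samples of the same strain, age and tissue without antibody. Each ChIP sample had 1 peak list, of 8860 peaks in replicate 1 and 10162 in replicate 2, and the input samples were not analysed here. The labels give neither the sex nor the number of embryos behind a sample, nor whether the replicates came from separate embryos, so differences between replicates may be technical.

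Isl1 is a LIM-homeodomain transcription factor with known roles in motor neurons, the heart, the pancreas and the mesenchyme of outgrowing appendages. Its homeodomain reads AT-rich DNA, and the LIM domains bind partner proteins. A promoter is the DNA around the start of a gene, where RNA polymerase and its general factors assemble, and many promoters of widely expressed genes are rich in CpG dinucleotides. In ChIP-seq, crosslinked chromatin is sheared and pulled down with an antibody. A peak marks DNA recovered with the target protein, whether the protein touched that DNA itself or was held there by others.

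The sequences shown here are copies of a short word, GGTCCTA, read on either strand, which was the leading word of these regions. They are shown first because most of them lay at the middle of the peak. Sequence came from RefSeq promoter windows of GRCm38.p6, each 300 bases long from 250 before to 50 after a gene start, and 185 of the 319 regions had their centre inside such a window. The word was found by ranking all 7-letter words of these same regions, so its frequency in them is a description. Each line below gives the promoter, the position and strand of the printed bases (mm10), and the sequence, 5′ to 3′, with the word in capitals.
Zfp668, chr7:127875862-127875889, minus strand: ggcccagcaGGTCCTAgaacccgcccgg
Zfp668, chr7:127875769-127875796, minus strand: ggacccgggGGTCCTAgagtccgccatg
Zfp668, chr7:127875655-127875682, minus strand: ccctcccgcGGTCCTAaagaacgccatt
Haspin, chr11:73138330-73138357, plus strand: ggcccgctgGGTCCTAgcgccggccctc
Rnft2, chr5:118245075-118245102, minus strand: ctgtgcgagGGTCCTAgcgccgatcgcg
Armh3, chr19:45998546-45998573, plus strand: tccccgccgGGTCCTAaaaccctccgct
Serpinh1, chr7:99353298-99353325, plus strand: cagcccctgGGTCCTActgccccctcgc
Atl2, chr17:79896106-79896133, plus strand: cggcctgcgGGTCCTAgcgccgccctct
Pcsk5, chr19:17837753-17837780, plus strand: agccacccaGGTCCTAgcgcctccctgt
Tsen54, chr11:115814684-115814711, minus strand: attccgcgcGGTCCTAgcgccttcgacc
Urod, chr4:116994494-116994521, minus strand: aattgtttgGGTCCTAcgggcagcaggg
Mfap2, chr4:141010594-141010621, minus strand: gagtcgctgGGTCCTAgagagcgccgcc
Mxi1, chr19:53310434-53310461, minus strand: tggcgcctgGGTCCTAgtgcgagcccga
Tdp1, chr12:99884402-99884429, minus strand: cccccactgGGTCCTAaagacagcctca

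These are the 12 highest scoring promoters, among those whose sequence may be shown, with a copy within 60 bases of the peak centre and its flanks inside the window. In the Zfp668 region the 3 copies lay 3, 96 and 210 bp from the centre. The copy lay 13 bp from the centre at Haspin, 3 bp at Rnft2, 2 bp at Armh3, 7 bp at Serpinh1, 4 bp at Atl2 and 9 bp at Pcsk5. Haspin encodes a kinase of histone H3 in mitosis, Serpinh1 the collagen chaperone Hsp47, Pcsk5 a proprotein convertase and Mfap2 a microfibril glycoprotein of the matrix.

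Other strong promoters had no copy. The 3 below had high scores and no copy anywhere in their window, and are shown to let the middle of such regions be read. Each is the 60 bases around the centre, on the gene's strand, and capitals mark a CCAAT box on the other strand.
Cenpu, chr8:46551870-46551929, plus strand: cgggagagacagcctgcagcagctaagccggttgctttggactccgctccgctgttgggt
Taf15, chr11:83472895-83472954, plus strand: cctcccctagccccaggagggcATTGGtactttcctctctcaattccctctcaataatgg
Prkci, chr3:30995557-30995616, plus strand: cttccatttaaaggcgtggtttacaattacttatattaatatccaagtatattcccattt

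Among all shared regions, the strong ones were found at gene ends more often than the weaker ones. Of 692 strong regions, 319 lay within 1 kb of a gene end (46.1%, Wilson 95% interval 42.4 to 49.8). Of 6142 weaker regions, 613 did (9.98%, 9.26 to 10.8). Intervals on shares cover counting error alone, and regions are not replicates of a condition. In the list of replicate 1 alone the share of strong peaks at gene ends was 45.7%, and in that of replicate 2 alone it was 37.3%.

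The regions with the highest scores lay at genes of varied function. The strongest, chr3:108209866-108210313, scored 1568 in replicate 1 and 1556 in replicate 2, and its centre lay 291 bp from the far end of Sypl2, a synaptophysin-like gene, and beside the start of Atxn7l2. Next was the region between Proser1 and Nhlrc3 (chr3:53463262-53463813), with scores of 1424 and 1398. It lay beside both starts. Tardbp, which encodes the RNA-binding protein TDP-43, had a region at chr4:148626742-148627084 with scores of 1420 and 1271. At Taf15, the gene of an RNA-binding protein that associates with TFIID, the scores were 1271 and 1143 (chr11:83472757-83473113). Both replicates placed these regions near the top of their range, which reached 1568 and 1612 among the 319.

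Cenpu and Cenpn, genes of the inner kinetochore, the protein assembly on the centromere, held 2 of the 20 strongest regions. The list with these genes, given below, had a strong region at 3.59% of its genes (1.66 to 7.62). That interval includes the 1.68% of all protein-coding genes. The region at Cenpu (chr8:46551768-46552044) scored 1386 and 1612, and that at Cenpn (chr8:116921422-116921754) scored 1276 and 956. Cenpu had the highest replicate 2 score of all 319 regions, while the scores at Cenpn stood further apart. The region centred 61 bp upstream of the start of Haspin scored 1190 and 985 (chr11:73138254-73138456). At Zfp668, a zinc finger gene, the region of 725 bp (chr7:127875503-127876227) scored 1334 and 1362. Its centre lay 956 bp inside the gene's outer start, at the promoter window of an inner start, whose sequence holds the 3 copies shown above.

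Further regions of the 20 strongest are given with their genes. Lrpprc, which stabilises mitochondrial mRNA, had scores of 1222 and 1165 (chr17:84790533-84791001). The region shared by the starts of Lrrc41 and Uqcrh, a subunit of respiratory complex III, scored 1329 and 1122 (chr4:116075062-116075401). Ints10, a subunit of the Integrator complex that processes RNA polymerase II transcripts, had scores of 1343 and 1211 (chr8:68793709-68793977). All 3 regions lay within 89 bp of a gene end.

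Arid1a, which encodes a subunit of the BAF chromatin remodelling complex, had 2 of the regions. The outer one, chr4:133757307-133757802, scored 1077 and 1000 with its centre 825 bp from the gene start. The inner one, chr4:133756659-133757237, scored 1019 and 926 at 156 bp. The other members of the 20 strongest lay at Rnf44 (1348 and 1242), Pxk (1409 and 1202), Ostc (1137 and 1045), Prkci (1238 and 979) and Oga (977 and 990), and at Atg12 with Ap3s1 (1210 and 970), Znhit3 (976 and 962) and Abhd16a (1080 and 956). Prkci encodes an atypical protein kinase C of cell polarity, Oga the enzyme that removes O-GlcNAc from proteins, and Atg12 a ubiquitin-like protein of autophagy. Of these 8, Oga alone scored higher in replicate 2.

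At the lower limit, the regions just inside were those of Loxl1, a lysyl oxidase gene of the matrix (317 and 404), of Plekhh3 (at the limit itself in replicate 1 and 349 in replicate 2) and of the forkhead gene Foxc2 (361 in replicate 1 and at the limit in replicate 2). Just outside lay those of the histone gene H4c14 (at the limit in replicate 1 and 313 in replicate 2), Aldh4a1 (847 and 313) and Cited1 (405 and 313). Their lower scores ran from 313 to 317, and by that score only the limit separates these 6 regions. Aldh4a1 had a far higher replicate 1 score than the others.

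In replicate 1 the median score of the 319 regions was 668, with quartiles of 510 and 904. In replicate 2 it was 561, with quartiles of 425 and 728.5. Replicate 1 gave the higher score at 245 of 319 regions (76.8%, Wilson 95% interval 71.9 to 81.1). The ratio of the replicate 2 to the replicate 1 score had a median of 0.831 (order-statistic 95% interval 0.810 to 0.862). The same ratio was 0.874 (0.838 to 0.938) in the weaker regions at gene ends and 1.04 (1.00 to 1.08) in the strong regions away from them. In the weaker regions away from gene ends it was 1.22 (1.20 to 1.24). Regions at gene ends thus leaned to replicate 1 and those elsewhere to replicate 2, at either strength. How the score was computed is not given in the sources used here, nor whether it can be compared between lists, and read depth is unknown, so their part in this shift was not tested.

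**Figure D1:**
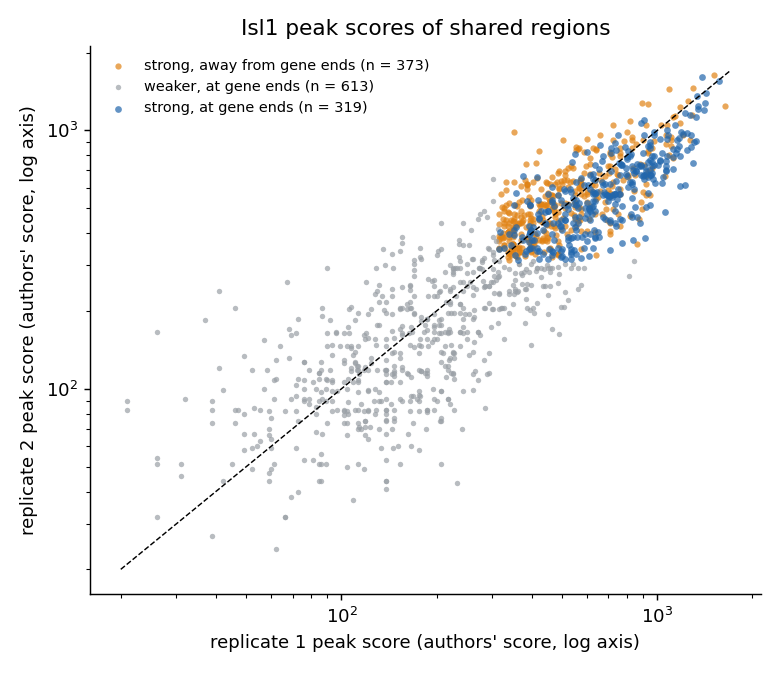
Peak score in replicate 1 (x axis) and replicate 2 (y axis), both the authors' score on log axes, 1 point per shared region, with equality as the dashed line. The 319 strong regions at gene ends lie mostly below the line (median ratio 0.831), while the 373 strong regions away from gene ends lie on both sides of it (1.04). The sharp lower edge of the blue and orange points is the score limit.

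Single regions ranged widely around that median. The lowest ratio was 0.418 at Sod2, the mitochondrial superoxide dismutase gene, with scores of 914 and 382, and Tpbg followed with 838 and 375. The highest was 1.78 at the histone gene H4f16, with 375 and 666. Across the 319 regions the replicate scores had a Spearman correlation of 0.766, against 0.667 in the 613 weaker regions at gene ends. These are descriptions over regions of the same 2 libraries, and a limit on both scores changes such a correlation.

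The joined regions were narrow. Their median width was 288 bp (quartiles 205 and 355, range 145 to 1216), compared with 394 bp for strong regions away from gene ends and 173 bp for the weaker ones at gene ends. Only 8 of 319 (2.51%) joined more than 1 peak of a list. Width grows with score in a peak list, so it is not independent of how the regions were chosen.

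The selection took either end of a gene, yet nearly all strong regions lay at the start. Strand was known for the nearest gene of 259 regions. Of these, 252 were at the start (97.3%, Wilson 95% interval 94.5 to 98.7) and 7 at the far end. Among the weaker regions at gene ends 445 of 486 were at the start (91.6%, 88.8 to 93.7), so both sets favoured starts and the intervals do not overlap. The far-end regions lay at Sypl2, Tctex1d1, Ppfia3, Tmem253, Slc11a1, Kif22 and Gm51999. That of Sypl2 was also at the start of Atxn7l2, and those of Ppfia3 and Kif22 lay within 1 kb of Hrc and of Maz. Tctex1d1 had scores of 911 and 1098 at 331 bp from its far end, with no other protein-coding gene end within 1 kb.

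Within the 1 kb limit the regions crowded close to the gene end. The median distance was 121 bp (quartiles 64 and 223). Of the 319, 129 lay within 100 bp (40.4%), 244 within 250 bp (76.5%) and 290 within 500 bp (90.9%). The weaker regions had a median of 112 bp, with 44.7% within 100 bp and 86.6% within 500 bp, so the sets differed little in distance.

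Most strong regions were centred upstream. Relative to the start, with negative values upstream, the median position of the 252 regions was −68 bp (order-statistic 95% interval −88 to −45, quartiles −145 and 38). The weaker regions had a median of −35 bp (−48 to −21). Upstream centres made up 172 of 252 strong regions (68.3%, 62.3 to 73.7) and 273 of 445 weaker ones (61.3%, 56.7 to 65.8). The intervals of the medians overlap in a few bases and those of the shares overlap more, so the shift upstream is not resolved from counting error by the shares. Starts here are the outer ends of RefSeq genes, and a region at an inner start, as in Zfp668, is placed far inside its gene.

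**Figure D2:**
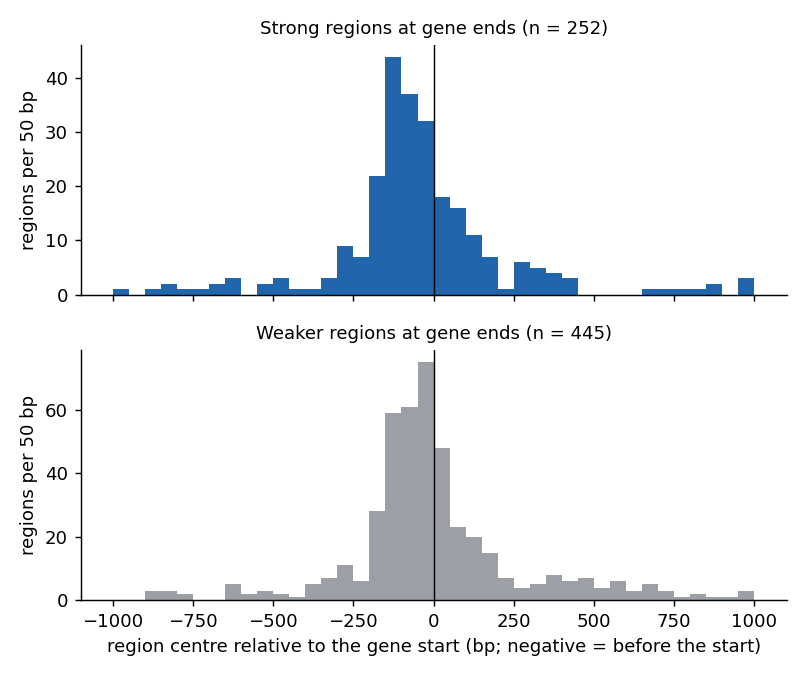
Position of the region centre relative to the gene start (x axis, bp, negative upstream) in bins of 50 bp, with the number of regions per bin on the y axis, for the 252 strong (top) and 445 weaker (bottom) regions at starts. Both rows peak just upstream of the start, with medians of −68 and −35 bp.

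Neighbouring gene ends were about as frequent as at the weaker regions. Of the 319 regions, 63 lay within 1 kb of the ends of at least 2 genes (19.7%, 15.8 to 24.5), beside 19.9% of the weaker regions and 15.3% of all gene starts with known strand. At 42 regions (13.2%, 9.89 to 17.3) at least 2 starts were in reach, beside 13.2% of the weaker regions. Over all starts with known strand the share was 10.6%. Only genes with known strand count as starts, and the 319 include regions whose nearest gene lacks it. The shares of regions and of all starts thus have unlike bases, and no conclusion was drawn from them. The 63 include far ends and are not all shared promoters. The strong and weaker regions did not differ here beyond counting error. Ak6, Taf9 and Rad17 shared 1 region with scores of 609 and 500 (chr13:100651015-100651405), the only one with 3 genes, and it holds the word 2 bp from its centre. Taf9 is a subunit of the general transcription factor TFIID and Rad17 a DNA damage checkpoint gene.

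There were 10 genes that were the nearest gene of 2 strong regions: Arid1a, Cebpa, Cited2, Lamb2, Lnpep, Mnt, Pdzrn3, Ptges2, Rap2b and Rmnd5a. Neighbours such as P3h4 with Fkbp10, and Spata5 with Nudt6, also had 2 in reach, each gene being nearest to 1 of them. Cebpa, a bZIP transcription factor gene, had scores of 1077 and 926 at 115 bp upstream of its start and of 891 and 728 at 647 bp. Cited2, a coactivator of CBP and p300, had 1063 and 704 at 94 bp upstream and 660 and 875 at 799 bp. The replicates thus ranked the Cited2 regions in opposite orders. Mnt, a repressor that pairs with Max, had 950 and 854 at 438 bp upstream and 885 and 673 at 65 bp downstream. The laminin gene Lamb2 had 714 and 814 at 804 bp upstream and 572 and 320, the latter close to the limit, at 21 bp upstream.

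Strong regions at gene ends stood alone more often than strong regions elsewhere. Another shared region lay within 10 kb of 63 of 319 (19.7%, 15.8 to 24.5), against 128 of 373 strong regions away from gene ends (34.3%, 29.7 to 39.3). Within 100 kb the shares were 50.5% (45.0 to 55.9) and 73.5% (68.8 to 77.7). The weaker regions at gene ends had 13.7% (11.2 to 16.7) and 47.8%, close to the strong ones at 100 kb. The most crowded by 10 kb was the region at Bcl9l, a Wnt coactivator gene, with 3 others.

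The promoters under the strong regions were CpG-rich. The 185 windows holding a region centre had a median GC content of 61.3% and a median ratio of observed to expected CpG of 0.828, against 56.3% and 0.567 over all 21238 windows of protein-coding genes. The CpG ratio was over 0.6 in 163 of 185 (88.1%, 82.7 to 92.0), in 86.6% of the 320 windows of weaker regions and in 47.6% of all windows. Strong and weaker regions did not differ in this beyond counting error, and both stood far from promoters at large. All windows, and the 10113 with a CpG ratio over 0.6, are both given below for that reason.

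The share of windows with each of 32 motifs of transcription factors, searched on both strands, was mostly that of CpG-rich promoters. The Isl1 recognition core CTAATG was in 7 of 185 windows (3.78%, 1.84 to 7.60), in 4.06% of the windows of weaker regions, in 6.44% of all windows and in 3.37% of CpG-rich ones. The general homeodomain core TAATTA was in 1.62%, against 2.03% of CpG-rich windows. The ETS motif CCGGAAG was in 18.4% (13.5 to 24.6) against 19.8%, and the YY1 core ATGGCGG in 11.9% (7.99 to 17.3) against 9.43%. The GC box GGGCGG, which Sp and Klf factors read, was in 61.6% (54.4 to 68.3) against 74.2%, and CCAAT in 28.1% (22.1 to 35.0) against 36.5%. The palindrome TCTCGCGA was in none, which allows up to 2.03% by the Wilson interval, against 2.76%. No motif was clearly more frequent than in CpG-rich windows, and the GC box, CCAAT and the palindrome had lower shares than there. The weaker regions had them in 62.5% (57.1 to 67.6), 35.0% and 2.50% of windows. Not all strong windows were themselves CpG-rich, and over all windows the GC box was in 46.2%. A lack of the GC box in strong regions is therefore not shown. A match or its absence concerns these letters in these windows alone.

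The word GGTCCTA was the exception among the words looked at in the strong regions. It was in 31 of 185 windows of strong regions (16.8%, Wilson 95% interval 12.1 to 22.8) and in 20 of 320 windows of weaker regions (6.25%, 4.08 to 9.46). Over all promoter windows the share was 2.61%, and over CpG-rich ones 2.58%. A few regions over 1 kb from the outer ends of genes also had their centre in a promoter window, of an inner start. The word was in 3 of 28 such windows of strong regions (10.7%, 3.71 to 27.2) and in 4 of 52 of weaker ones (7.69%, 3.03 to 18.2), with 3 copies of each within 20 bases of the centre. These intervals overlap that of the strong regions at gene ends, so the word was not shown to be particular to them. Within 60 bases of the region centre it was found in 27 strong (14.6%, 10.2 to 20.4) and 9 weaker regions (2.81%, 1.49 to 5.26), and within 20 bases in 24 (13.0%, 8.88 to 18.6) and 8 (2.50%, 1.27 to 4.85). In all windows it lay within 20 bases of a point 105 bases before the start in 0.311% (0.244 to 0.395). The weaker regions thus also held the word near the centre more often than that background. By the difference from all windows GGTCCTA ranked first of 6654 words of 7 letters present within 60 bases of the centres. The second, CTAGGAC, overlaps it on the other strand by 6 letters. By the same measure GGTCCTA ranked 252 of 7351 words in the weaker regions, where CTTAAAG ranked first. Because the word was picked in the 185 windows after words of 6, 7 and 8 letters and several stretches and backgrounds had been tried, the choice itself raises its share there. The weaker regions took no part in picking it, but come from the same libraries. Split by chromosome number after the word was known, it ranked first in the odd-numbered chromosomes (16 of 103 regions) and in the even-numbered ones with X (11 of 82), which is no independent support.

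**Figure D3:**
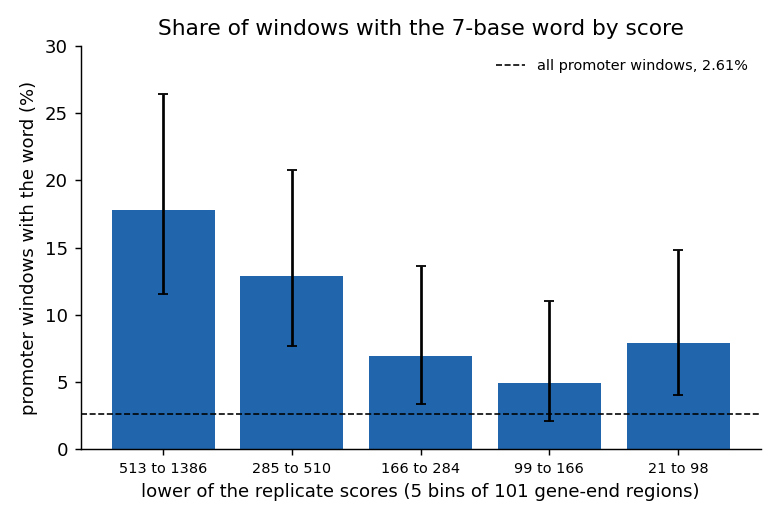
Share of promoter windows with GGTCCTA on either strand (y axis, %) in 5 bins of 101 gene-end regions ordered by the lower replicate score (x axis), with Wilson 95% intervals as error bars and the share over all promoter windows, 2.61%, as a dashed line. The 2 bins with the highest scores stand at 17.8% and 12.9% and the 3 others between 4.95% and 7.92%.

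The share by score is a description only, since the word was picked in the strong regions, which fill the top bin and most of the next. In 5 bins of 101 gene-end regions with a window, it was in 17.8% (11.6 to 26.4) of those scoring 513 to 1386 and in 12.9% (7.68 to 20.8) of those scoring 285 to 510. The lower bins had 6.93%, 4.95% and 7.92% (4.07 to 14.9), so they had no order among themselves beyond counting error. Among the strong regions themselves, however, those with the word did not score higher: their lower score had a median of 565 (462 to 668, n = 31) beside 547.5 (501 to 576, n = 154) in those without it. Regions with the word were narrower, with a median of 227 bp (203 to 292) beside 317.5 bp (268 to 335), and these intervals overlap. Their replicate ratios, 0.815 and 0.832, were alike within their intervals.

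The word sat at the middle of the peak. Across the 31 strong regions with a copy, the nearest copy lay a median of 9 bp from the centre in either direction (5 to 13), against 62.5 bp (14 to 86) in the 20 weaker ones. Read along the gene, the median offset was 6 bp downstream of the centre. The nearest copy read GGTCCTA on the strand opposite to the gene in 25 of 31 strong regions (80.6%, 63.7 to 90.8) and in 17 of 20 weaker ones (85.0%, 64.0 to 94.8). Position and orientation took no part in picking the word, except that it was ranked within 60 bases of the centre.

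**Figure D4:**
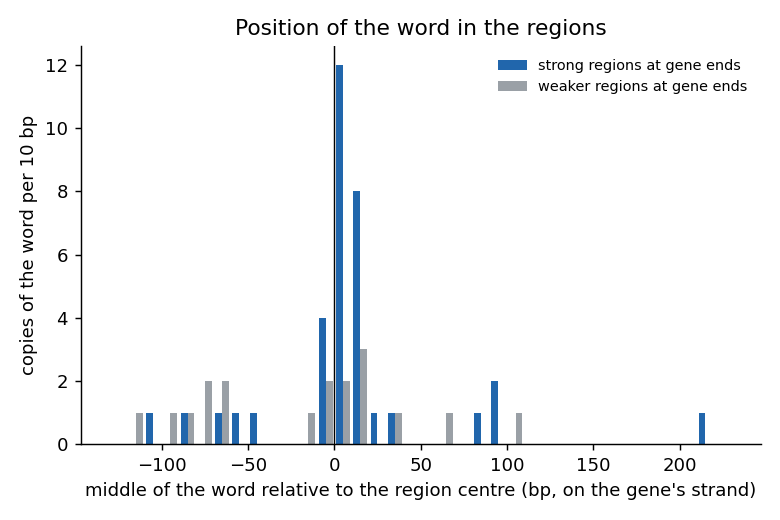
Distance of copies of GGTCCTA from the region centre (x axis, bp along the gene's strand) in bins of 10 bp, with the number of copies on the y axis, in strong (blue) and weaker (grey) regions at gene ends. Copies of weaker regions at -199 and -185 bp lie outside the bins and are not drawn. Copies of strong regions pile up from 0 to 20 bp. Those of weaker regions are more scattered, though 8 of the 20 weaker regions with a copy had it within 20 bp.

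The flanks of the word were alike too. In the 29 strong regions with 9 bases before and 12 after the copy inside the window, the next base was G in 19 (65.5%), and the bases 3, 4 and 5 after the word were G in 21 (72.4%), C in 21 (72.4%) and C in 20 (69.0%). Counted back from the word, base 3 was C in 22 (75.9%). The lines printed above show this run as gcgcc after the word in Haspin, Rnft2, Atl2, Pcsk5 and Tsen54. The longer form GGTCCTAGNGCC, written from the bases that most of these flanks share, was in 12 of 185 strong windows (6.49%, 3.75 to 11.0), in 3 of 320 weaker ones (0.938%, 0.319 to 2.72) and in 29 of all 21238 (0.137%). GGTCCTAG was in 10.8%, 2.50% and 1.04%. With at least 6 of the 7 letters matching within 20 bases of the centre, 39 strong (21.1%, 15.8 to 27.5) and 29 weaker regions (9.06%, 6.38 to 12.7) had a copy. Stretches of that length in all windows, centred at the median place of the 185 strong regions within theirs, had one in 7.83%. Exact copies are included: 24 of the 39, 8 of the 29, and 66 of 1663 in all windows. An excess of inexact copies is therefore not shown. The longer forms and the mismatch search were chosen after the flanks were seen. Most strong promoters, 154 of 185, had no exact copy, among them Cenpu, Taf15 and Prkci printed above.

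Genes with a strong region at an end were 367 of 21887 protein-coding genes, or 1.68%, and this is the background for the following counts. It takes in genes with and without CpG-rich promoters, and no background matched for CpG was computed for the lists. The 25 gene families below are lists of symbols chosen with earlier results of these data known. None was tested, and most counts are small. The strong regions touched 80 genes of these lists and 287 genes in none of them.

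Chromatin regulators had a strong region at 9 of 158 genes (5.70%, 3.03 to 10.5). Besides Arid1a they were Hdac2, a histone deacetylase gene (1035 and 820), Setd1a, a methyltransferase gene for lysine 4 of histone H3 (961 and 798), Eed of Polycomb complex 2 (887 and 737) and Ino80, a remodelling ATPase gene (976 and 736). Arid3a, Arid5b, Kmt2c and Smarcd2 completed the list. Every one of these scored higher in replicate 1, as did 245 of all 319 regions (76.8%), so no trait of this list is shown.

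Genes of RNA polymerases, general transcription factors, Mediator and Integrator had one at 7 of 129 (5.43%, 2.65 to 10.8). Behind Ints10 and Taf15 these were Taf3 (624 and 577), Polr2l (685 and 565), Med6, Taf9 and Ints4. Splicing and RNA-binding genes had one at 6 of 206 (2.91%, 1.34 to 6.21), led by Tardbp and then Ddx54 (946 and 899), with Snrnp35, Snrpa1 and Lsm5 further down. The first share stood above the background and the second near it.

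Replication-dependent histone genes had one at 7 of 68 (10.3%, 5.08 to 19.8). All but H2ac24 encode histone H4: H4c12 (423 and 452), H4c8 (393 and 428), H4c4, H4f16, H4c18 and H4c9, and H2ac24 shares its region with H4c18. Their lower scores were all under 500, in the lower range of the 319 regions. Histone H4 genes are near-identical copies, so reads may be split or misplaced among them, and this list's pattern was rewritten after it had matched no current symbol. The only copy of GGTCCTA among them was in the H4c4 window, 90 bp from the centre.

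Respiratory chain genes had one at 5 of 105 (4.76%, 2.05 to 10.7): Uqcrh, Atp5l (736 and 890), Ndufb1 (774 and 736), Cox7a2l and Ndufa5. Translation factors and tRNA synthetases had 4 of 108 (3.70%), with Eif3b (907 and 646), Eef1a1 (636 and 736), Yars and Eef1d. Proteasome genes had 2 of 51 (Psmc1 and Psma7), mitochondrial ribosomal proteins 2 of 78 (Mrpl42 and Mrps5, both with the word) and cytosolic ribosomal proteins 2 of 87 (Rps12 and Rpl38). The cell cycle and centromere list, matched by symbol and not by function, had 6 of 167 (3.59%, 1.66 to 7.62). These were Cenpu, Cenpn, Mcm4 (904 and 820), Cenpp, Kif22 and Cdc40, the last of which is counted here by its symbol alone. Of these 6 lists, only that of the respiratory chain has an interval above the background, which is a description of counting error and no test.

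**Figure D5:**
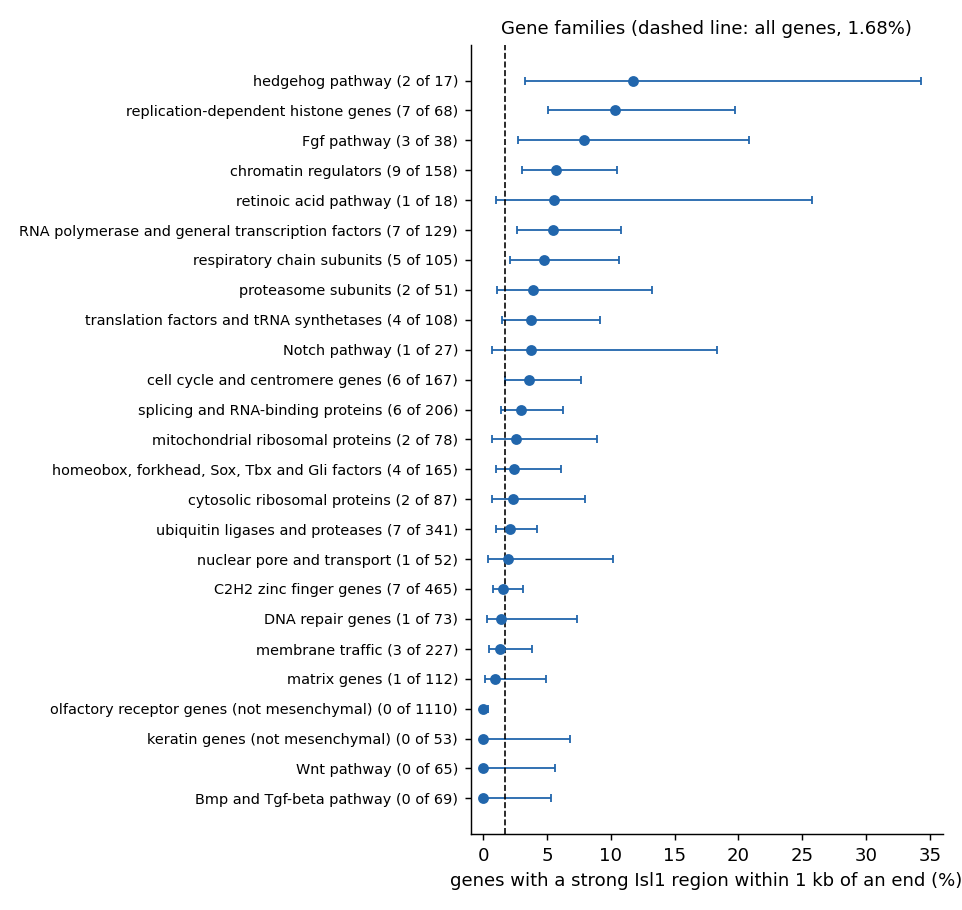
Share of genes with a strong Isl1 region within 1 kb of an end (x axis, %) in each of 25 gene families (y axis, with counts), with Wilson 95% intervals as bars and the share over all protein-coding genes, 1.68%, as a dashed line. The whole bar stands to the right of the line for hedgehog (11.8%), histone (10.3%) and Fgf genes (7.89%). The same holds for chromatin regulators (5.70%), RNA polymerase and general factor genes (5.43%) and respiratory chain genes (4.76%). The small signalling lists have wide bars.

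The signalling families known from appendage outgrowth are short lists, and few of these regions lay at their genes. The hedgehog and Fgf shares, on 2 and 3 genes, had intervals above the background of 1.68%. Those of the other signalling lists did not. With a score limit of 500 the hedgehog and Fgf counts fell to 1 and 0. Hedgehog genes had 2 of 17 (11.8%, 3.29 to 34.3): Gli1, the pathway's transcriptional effector and target, with scores of 766 and 741 at 452 bp from an end (chr10:127341936-127342127), and the coreceptor gene Cdon, with 587 and 352. Fgf genes had 3 of 38 (7.89%, 2.72 to 20.8), which were Fgf12, an intracellular member of the family (510 and 450), and Spred2 (418 and 476) and Spred3, both inhibitors of Ras signalling. The retinoic acid receptor gene Rara (533 and 338) and Notch3 (451 and 317) were the only genes of their lists, of 18 and 27. No gene among the 65 symbols of the Wnt list and none among the 69 of the Bmp and Tgf-beta list had one, although 7 and 5 had a weaker region, and these counts of 0 allow shares of up to 5.58% and 5.27% by the Wilson interval. The Wnt list is incomplete: Bcl9l (554 and 514) and Frat2 (918 and 507), which act in the pathway and are not on it, had a strong region. A gene without a strong region is not shown to be unbound.

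Homeobox, forkhead, Sox, Tbx and Gli genes had 4 of 165 (2.42%, 0.947 to 6.07), which were Gli1, Foxn3 (463 and 526), Foxk1 and Foxc2. The list of matrix genes had 1 of 112, Loxl1 just inside the limit, but it leaves out Mfap2 and Lamb2, described above, which had strong regions. The large families of C2H2 zinc fingers (7 of 465, 1.51%), ubiquitin ligases and proteases (7 of 341, 2.05%) and membrane traffic (3 of 227, 1.32%) were near the background, as were nuclear pore genes (1 of 52, Nup85) and DNA repair genes (1 of 73, Rad17). Keratin genes (0 of 53, up to 6.76%) and olfactory receptor genes (0 of 1110, up to 0.345%), listed as not mesenchymal, had none. Expression was not measured, so these lists are no control for absent cell types.

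By chromosome, the number of strong regions per 100 protein-coding genes was 1.46 overall. It was highest on chromosome 19 with 2.13 (15 regions, 705 genes) and lowest, apart from Y with 0 of 256 genes, on X with 0.311 (3 regions, 966 genes). X-linked regions lay at Uba1, the ubiquitin-activating enzyme gene (472 and 376), and at the synapsin gene Syn1 (497 and 340), both in the lower range of the 319. The sex of the embryos is not given in the labels, and the dose of X was not tested.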

How the data were processed

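Chromatin immunoprecipitation with an antibody against ISL1 was compared in 2 samples of genital tubercle at embryonic day 14.5. Trimmomatic 0.35, Bowtie2 2.2.6, MACS2 2.1.0.20150731, bedtools and build mm10 appear in the submitters' processing notes without order or settings. Each deposited peak list holds positions and a whole-number score per peak, given by the authors, and no source used here states its formula, its threshold or how the input entered. Scores ranged from 20 upward, and 878 peaks of replicate 1 and 960 of replicate 2 reached 316, the limit on the lower replicate score. Read totals are not given, so depth is unknown. A site under the authors' threshold does not appear.

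Regions were joined and placed in Python 3.11.15 with pandas 2.3.3 and numpy 2.4.6 against RefSeq genes of GRCm38.p6, whose coordinates are those of mm10. Strand came from RefSeq promoter windows and was known for 17492 of 21887 genes (79.9%). The windows leave out chromosome 18. The background stretches for the mismatch search were centred 105 bases before the start, the median place of the 185 strong regions within their windows. A region has sequence only where its centre lies in a window, for 185 strong and 320 weaker regions. Shares carry Wilson 95% intervals and medians order-statistic 95% intervals, for counting error alone. No p-value was computed, since score and distance chose the regions and regions are not replicates. The steps were tested on simulated lists.

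Members, gene lists, motifs and alternatives were chosen with earlier results of these data known. GGTCCTA, its longer forms, the mismatch search, the score bins and the split by chromosome were chosen after the sequences were seen, following looks at words of 6, 7 and 8 letters in whole windows and centre stretches against both backgrounds, by 2 ranking measures, and a further look at regions without the word. Named genes are the 20 regions with the highest lower score, up to 6 genes per list by that score, and 3 regions on either side of the limit. Further regions were named for a measure given beside them (both ends of the replicate ratio, far ends, 2 regions at a gene, X linkage) after their values were seen. Alternatives were score limits of 200 and 500, the mean score, distance limits of 500 bp and 2 kb, 50% reciprocal overlap, the midpoint of the joined span as centre, and each replicate alone.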

Additional observations from a re-analysis of the deposited data

How the results depend on the processing

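Of 340 values recomputed under alternatives, 287 stayed within their interval or within 1.5 times the count, and 53 moved, 40 of them counts of single gene lists. With a score limit of 500 the strong regions at gene ends numbered 182 and their genes 214, the share of strong regions at gene ends was 57.6%, the median width was 327 bp and 0% of the regions were on chromosome X, beside 0.940% with the limit used. With a limit of 200 there were 479 regions at 554 genes, and the share was 35.1%. A distance limit of 500 bp gave a share of 41.9%, and one of 2 kb gave 49.9% and 24.6% of regions with the ends of 2 genes. With each replicate list alone the share at gene ends ranged from 37.3% to 45.7% and the median width from 233 to 267 bp. Histone genes with a strong region numbered 0 with the limit of 500, 12 with that of 200 and 11 with the mean score, and Wnt genes numbered 4 with the limit of 200. Hedgehog genes numbered 1 and Fgf genes 0 with the limit of 500. The cause was not tested beyond what the limits themselves set. The share with GGTCCTA and the share at starts stayed within their intervals in every alternative run. The word was picked in the main regions and kept fixed, and the alternatives reuse many of the same regions. Its steady share is therefore no independent support. No paired analysis was possible because ChIP and input carry the same numbers in their titles but only the ChIP samples had peaks to analyse here. Unknown read depth limits what a missing peak can show, and only regions with a sequence window could be searched for words.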
